A study of Mus musculus with 16 samples.

Results

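The 8 genes described here, Gas5, Snhg1, Snhg3, Snhg5, Snhg6, Snhg8, Snhg12 and Snhg15, are non-coding host genes of small nucleolar RNAs (snoRNAs). They were taken by symbol from the deposited tables of normalized counts, which list 15080 genes for leukemic cells and 13344 genes for the other cells of the bone marrow (BM). All 8 were listed in the first table and 7 in the second, where Snhg3 was not listed. B-ALL cells that carry BCR-ABL, lack Arf (Arf-/-) and express mCherry were given by tail vein injection, 500000 cells per mouse, to C57BL/6J mice that were wild-type (WT) or IL6KO (IL-6 KO), bought at 6 to 8 weeks of age. The mice received no drug, and BM from femur and tibia was taken 8 days after injection, depleted of red cells and sorted into mCh+ cells, called tumor, and live mCherry-negative singlets, called stroma. Each of the 4 groups (WT tumor, IL-6 KO tumor, WT stroma and IL-6 KO stroma) had 4 libraries. The leukemic cells were the same in both hosts, so genotype refers to the mouse and not to the tumor, and stroma was a gate on the absence of mCherry and not a selection for stromal markers. Nothing in the labels says that libraries of a group came from separate mice, so the p-values measure the spread between these libraries.

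A snoRNA host gene is transcribed and spliced, and the snoRNAs are trimmed out of its introns. snoRNAs then guide the modification or cleavage of ribosomal RNA inside ribonucleoprotein particles: C/D box snoRNAs with fibrillarin, Nop56 and Nop58, and H/ACA box snoRNAs with dyskerin. The spliced host RNA that remains is known in several cases as a target of nonsense-mediated decay, and many hosts have promoters that respond to growth like those of ribosomal protein genes. Gas5 was named for its rise in growth-arrested cells, and its spliced RNA is known to bind the glucocorticoid receptor. In the leukemic BM these genes are of interest because lymphoid cells respond to glucocorticoids and because ribosome production follows proliferation.

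In GENCODE vM21 (build GRCm38, the same coordinates as mm10), Gas5 lies at chr1:161034422-161038539 on the plus strand and its span holds 10 annotated snoRNA entries. Snhg1 lies at chr19:8723475-8726443 on the plus strand and holds 8, and Snhg12 lies at chr4:132308623-132311024 on the plus strand and holds 5. Snhg3 lies at chr4:132348014-132353686 on the minus strand and holds 2, Snora73a and Snora73b, and Snhg5 lies at chr9:88521050-88522929 on the minus strand and also holds 2. Snhg6 (chr1:9941959-9944118, minus), Snhg8 (chr3:123507552-123508404, minus) and Snhg15 (chr11:6525591-6528760, minus) hold 1 each. The annotation calls Snhg6 and Snhg12 lincRNAs and the others processed transcripts. Their annotated transcripts are short, from a mean of 443 nt for Snhg3 to 952 nt for Snhg12, and the GC content ran from 41.1% for Snhg1 and Snhg6 to 51.0% for Snhg15.

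The start sites are shown because the hosts are known for a promoter type that begins transcription in a run of pyrimidines, which places them with ribosomal protein genes. RefSeq (GRCm38.p6) gave a window for 7 of the 8 hosts. The 70 bases below run from 45 before the start to 25 after its first base, 5′ to 3′ on the gene's strand. Capitals mark TATA where it lies between 45 and 15 bases before the start, and the longest run of C or T from 15 before to 25 after the start where that run has at least 6 bases.
Gas5 (chr1:161035121-161035190): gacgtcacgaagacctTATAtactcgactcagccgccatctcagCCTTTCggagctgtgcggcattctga
Snhg1 (chr19:8723442-8723511): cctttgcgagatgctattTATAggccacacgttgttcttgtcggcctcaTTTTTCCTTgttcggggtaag
Snhg3 (chr4:132353662-132353731): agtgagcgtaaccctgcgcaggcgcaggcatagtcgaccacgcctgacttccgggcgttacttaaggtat
Snhg5 (chr9:88522873-88522942): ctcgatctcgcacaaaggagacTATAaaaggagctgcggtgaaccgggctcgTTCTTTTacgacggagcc
Snhg8 (chr3:123508312-123508381): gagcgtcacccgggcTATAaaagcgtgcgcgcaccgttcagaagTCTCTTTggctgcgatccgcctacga
Snhg12 (chr4:132308633-132308702): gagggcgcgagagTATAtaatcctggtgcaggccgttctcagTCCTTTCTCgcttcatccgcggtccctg
Snhg15 (chr11:6528736-6528805): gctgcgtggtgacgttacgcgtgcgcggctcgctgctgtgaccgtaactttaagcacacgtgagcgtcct

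TATA stood in the interval searched in 5 of the 7 hosts (5 of their 8 windows) and in 6.72% of all 32851 windows of the same table. A pyrimidine run of at least 6 stood in its interval in 5 of the 7 (5 of 8 windows) and in 36.3% of all windows. In Snhg1 and Snhg5 this run began 4 and 7 bases after the annotated first base. Gas5, Snhg1, Snhg5, Snhg8 and Snhg12 had both, and Snhg3 and Snhg15 had neither in the window shown. TATA reads the same on both strands, and the intervals searched for the 2 features do not overlap. Another RefSeq start of Gas5 had neither feature. The hosts with both features include genes called lower in tumor (Gas5, Snhg1) and genes that were not called (Snhg5, Snhg8, Snhg12).

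Whole-series values set the limits for what follows. In the tumor table, all 12 markers of the B lineage were listed, with 2 called higher and 2 lower. They summed to between 144996 and 150242 normalized counts per WT library and between 157822 and 168088 per IL-6 KO library, without overlap. Within the stroma table the same markers summed to between 602 and 1715, beside 53685 to 223020 for erythroid markers. The stroma libraries were dominated by single genes. The signal recognition particle RNA Rn7s1 took between 10.9% and 79.0% of a library's summed signal, and CT010467.1 took 61.5% of IL-6 KO stroma library 4. The tumor libraries also held a gene with a large share. Gm26917 took between 13.1% (WT tumor library 2) and 22.7% (IL-6 KO tumor library 3) of the summed signal. Spearman correlations between libraries were between 0.961 and 0.990 in tumor and between 0.745 and 0.899 in stroma, with no identical pair. Of the 12 genes on a mature neutrophil list, 9 were called higher in IL-6 KO tumor, with summed levels between 4707 and 5320 in WT and between 7230 and 17763 in IL-6 KO libraries. Of 12 monocyte and macrophage markers 4 were called higher, with sums between 2029 and 2481 in WT and between 2577 and 3627 in IL-6 KO tumor. The 5 of 12 T and NK cell markers in the tumor table summed to between 1661 and 1982 in WT and between 1195 and 1581 in IL-6 KO tumor, without overlap and with 0 called. Of 7 erythroid markers tested in tumor, 1 was called lower and 0 higher, as of 8 mesenchymal and endothelial markers. Over all tumor genes tested, 10.6% were called higher and 9.16% lower. Every IL-6 KO library was below every WT library in 11.96% of these genes and above in 13.6%. In bulk libraries, fewer cells of a type and less RNA per cell cannot be told apart, and the part of these cells in the results for the hosts was not tested. The T cell markers Cd3d, Cd3e and Cd3g were in neither table. Of 12 mesenchymal and endothelial markers, 6 were listed in stroma, and Cxcl12, Lepr and Cdh5 were among those not listed. The listed ones summed to between 334 and 601 in WT and between 189 and 1691 in IL-6 KO stroma.

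The transcripts' base composition moved with genotype and bears on every direction given below. In tumor, each library's log2 values, less the gene's mean over the 8 tumor libraries, were fitted on GC content. This relative slope was negative in each of the 4 WT libraries (between -0.24 and -0.09 per 10 percentage points of GC). It was positive in each of the 4 IL-6 KO libraries (between 0.04 and 0.32). The centring makes slopes of both signs occur, but does not set which libraries have which sign. Over all tumor genes tested, the median log2 fold change (log2FC, IL-6 KO over WT) rose from -0.25 in the quintile with the lowest GC content to 0.23 in the quintile with the highest. In tumor it was -0.61 in the 302 genes that were in the lowest quintile for both GC content and length, and Gas5, Snhg1, Snhg3, Snhg5 and Snhg6 were among these genes. All 8 hosts were in the shortest quintile. In stroma the same medians ran from -0.23 to 0.21. The fold changes of the hosts in tumor are therefore given as deposited and with each library's trend on GC content and length removed, where the trend was fitted over all genes or over protein-coding genes only. For other genes, "without the trend" refers to that of all genes. Whether the trend came from the libraries or from the cells was not tested.

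In tumor, Gas5, Snhg1, Snhg3 and Snhg6 were lower in IL-6 KO than in WT mice in the deposited values, by between 21.1% (Gas5) and 38.5% (Snhg3), and every one of these differences turned positive once each library's trend of all genes on GC content and length was removed. With the trend of protein-coding genes removed they lay between -0.10 (Snhg3) and 0.01 (Gas5) on the log2 scale, and none of the 4 was called. Snhg5, Snhg8, Snhg12 and Snhg15 were not called. A gene is called here at a limma adjusted p under 0.05, by a fit over all 14493 tumor genes whose mean exceeded 10 normalized counts, in which 9.16% of genes were called lower and 10.6% higher. Of the 8 hosts, 4 were called lower and 0 higher, and 5 had an unadjusted p under 0.05, as had 5091 of all genes. The hosts' median log2FC was -0.17, beside -0.01 over all genes. In these 4 hosts every IL-6 KO library was below every WT library, as was so for 11.96% of all genes tested.

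**Figure D1:**
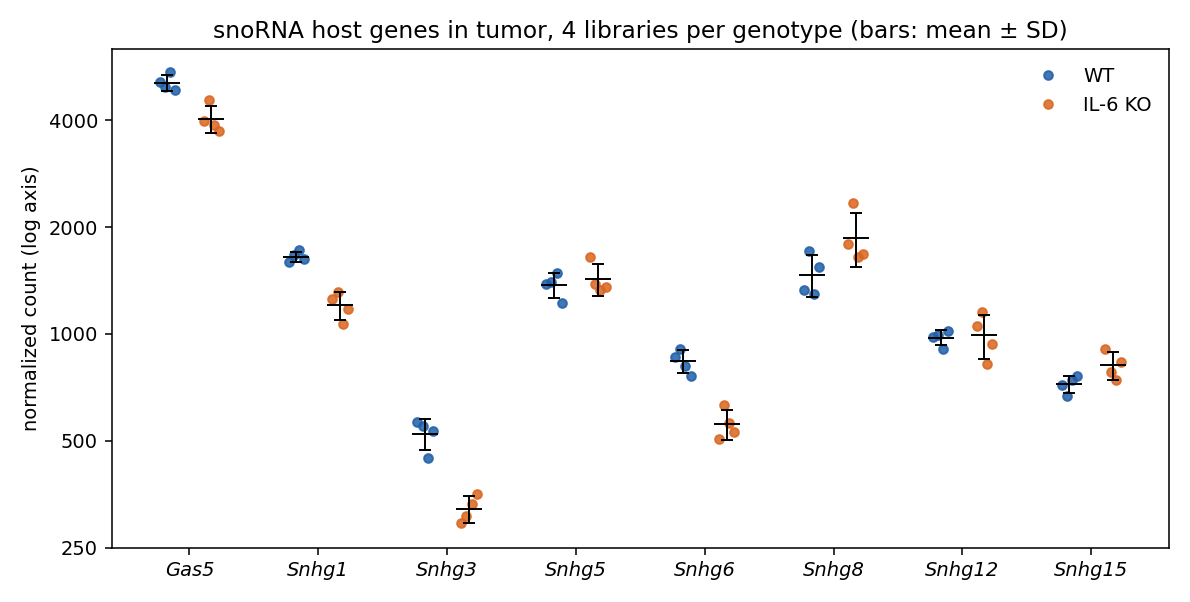
Normalized counts (log axis) of the 8 hosts in the 4 WT (blue) and 4 IL-6 KO (orange) tumor libraries, with the mean and SD of each group. The genotypes do not overlap for Gas5, Snhg1, Snhg3 and Snhg6, and overlap for the other 4 hosts.

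Gas5 was the most abundant host. Its normalized counts were 5111, 4954, 5463 and 4874 in WT tumor libraries 1 to 4 and 3987, 4551, 3874 and 3723 in IL-6 KO tumor libraries 1 to 4. The means were 5101 ± 261 and 4034 ± 361 (SD, n = 4 each), and the lowest WT library was above the highest IL-6 KO library. The log2FC was -0.34 (SE 0.08, limma adjusted p = 0.0150) as deposited, 0.01 (adjusted p = 0.929) with the trend of protein-coding genes removed, and 0.30 (adjusted p = 0.0375, then called higher) with the trend of all genes removed.

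Snhg1 hosts C/D snoRNAs on chromosome 19. It was at 1591, 1664, 1720 and 1625 normalized counts in WT tumor and at 1256, 1315, 1064 and 1177 in IL-6 KO tumor. All IL-6 KO libraries were below all WT libraries, with means of 1650 ± 55.4 and 1203 ± 108 (SD, n = 4 each). The log2FC of -0.46 (SE 0.08, limma adjusted p = 0.00666) became -0.05 (adjusted p = 0.773) without the trend of protein-coding genes and 0.19 (adjusted p = 0.169) without that of all genes.

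Snhg3, which hosts the H/ACA snoRNAs Snora73a and Snora73b, was the lowest of the 8 hosts in normalized counts and had the largest difference of them. It was at 564, 549, 449 and 534 in WT tumor and at 293, 307, 331 and 355 in IL-6 KO tumor. The lowest WT library was above the highest IL-6 KO library, with means of 524 ± 51.6 and 322 ± 27.3 (SD, n = 4 each). The log2FC of -0.70 (SE 0.11, limma adjusted p = 0.00421) was -0.40 (adjusted p = 0.0491) with only the trend on GC content removed, -0.22 (adjusted p = 0.238) with only that on length removed, -0.10 (adjusted p = 0.596) without the trend of protein-coding genes, and 0.29 (adjusted p = 0.216) without that of all genes.

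Snhg6, a small host with a single annotated snoRNA, was at 861, 910, 815 and 763 in WT tumor and at 507, 629, 561 and 531 in IL-6 KO tumor. Its means were 837 ± 62.7 and 557 ± 53.0 (SD, n = 4 each), and the groups did not overlap. The log2FC of -0.59 (SE 0.10, limma adjusted p = 0.00515) became -0.05 (adjusted p = 0.775) without the trend of protein-coding genes and turned to 0.39 (adjusted p = 0.0260, then called higher) without that of all genes.

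Snhg8, which hosts Snora24, was the only one of the 8 hosts that had a positive log2FC and was called higher under each of the 4 ways of removing a trend. Its normalized counts were 1327, 1714, 1296 and 1542 in WT tumor and 1792, 2345, 1642 and 1684 in IL-6 KO tumor. Libraries 3 and 4 of IL-6 KO tumor lay below WT library 2, so the groups overlapped. As deposited, the log2FC was 0.34 (95% confidence interval 0.04 to 0.63, limma adjusted p = 0.0997), and it was 0.50 (adjusted p = 0.0351) without the trend of protein-coding genes and 0.81 (adjusted p = 0.00159) without that of all genes.

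Snhg15 was at 718, 667, 740 and 760 in WT tumor and at 910, 779, 742 and 834 in IL-6 KO tumor. Only IL-6 KO library 3 fell within the WT range. Its log2FC of 0.18 (95% confidence interval -0.03 to 0.38, limma adjusted p = 0.208) was 0.24 (adjusted p = 0.147) without the trend of protein-coding genes and 0.49 (adjusted p = 0.0194, then called higher) without that of all genes. Snhg5 was at 1385, 1402, 1488 and 1225 in WT tumor and at 1648, 1382, 1330 and 1353 in IL-6 KO tumor, with only IL-6 KO library 1 above the WT range. Its log2FC was 0.05 (95% confidence interval -0.16 to 0.27, limma adjusted p = 0.732), 0.32 (adjusted p = 0.0627) without the trend of protein-coding genes and 0.50 (adjusted p = 0.00997, then called higher) without that of all genes. The GC content is 43.6% in Snhg5, 42.4% in Gas5 and 42.6% in Snhg3, and the mean transcript lengths are 824, 741 and 443 nt. Snhg12 was at 980, 995, 909 and 1021 in WT tumor and at 1052, 1152, 823 and 934 in IL-6 KO tumor. The IL-6 KO libraries spread to both sides of the WT libraries, and the log2FC of 0.01 (95% confidence interval -0.23 to 0.26, limma adjusted p = 0.958) was not called under any alternative.

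**Figure D2:**
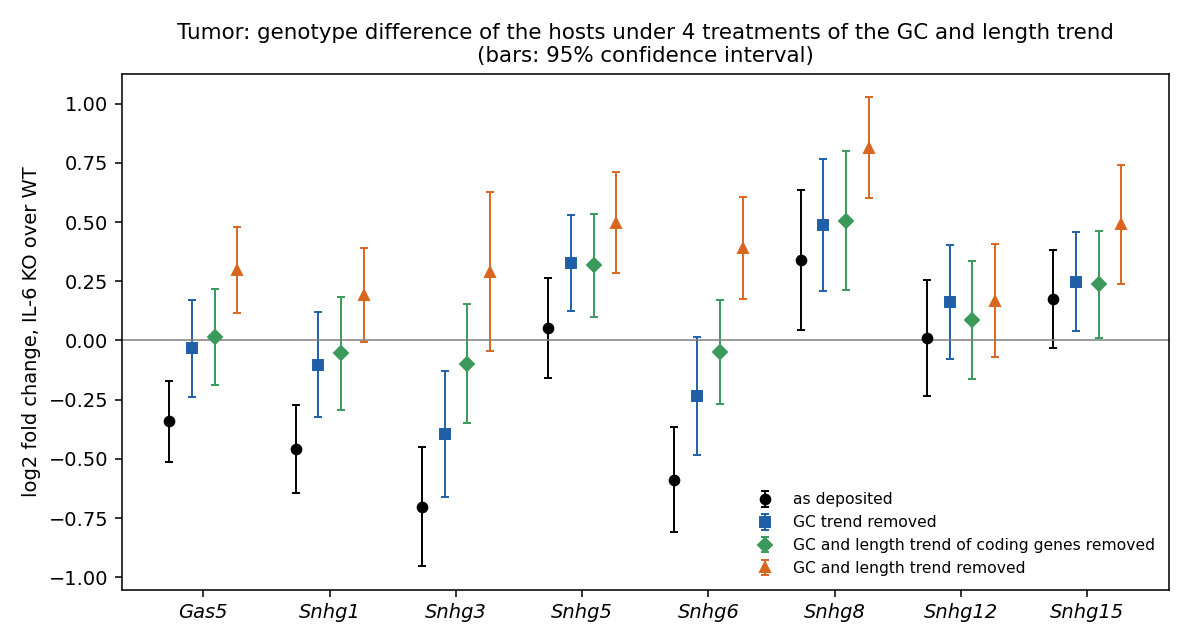
Log2FC (IL-6 KO over WT) of each host in tumor, with its 95% confidence interval, as deposited (black), with the trend on GC content removed (blue), with the GC and length trend of protein-coding genes removed (green) and with that of all genes removed (orange). Gas5, Snhg1, Snhg3 and Snhg6 lie below 0 as deposited (-0.34 to -0.70) and above 0 in the last treatment (0.19 to 0.39), while Snhg8 lies above 0 in all 4.

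With the trend of all genes removed, all 8 hosts had a positive log2FC, from 0.17 (Snhg12) to 0.81 (Snhg8), and Gas5, Snhg5, Snhg6, Snhg8 and Snhg15 were called higher. In that fit, 11.2% of all genes were called higher and 4.22% lower. The median over the hosts was then 0.34, beside 0.08 over all genes. The split of all calls moved with it, from 53.7% higher as deposited to 72.6% higher. Snhg8 had the highest log2FC of the 8 hosts in all 4 treatments plotted, and Snhg1 and Snhg3 were among the 3 lowest in each of them.

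**Figure D3:**
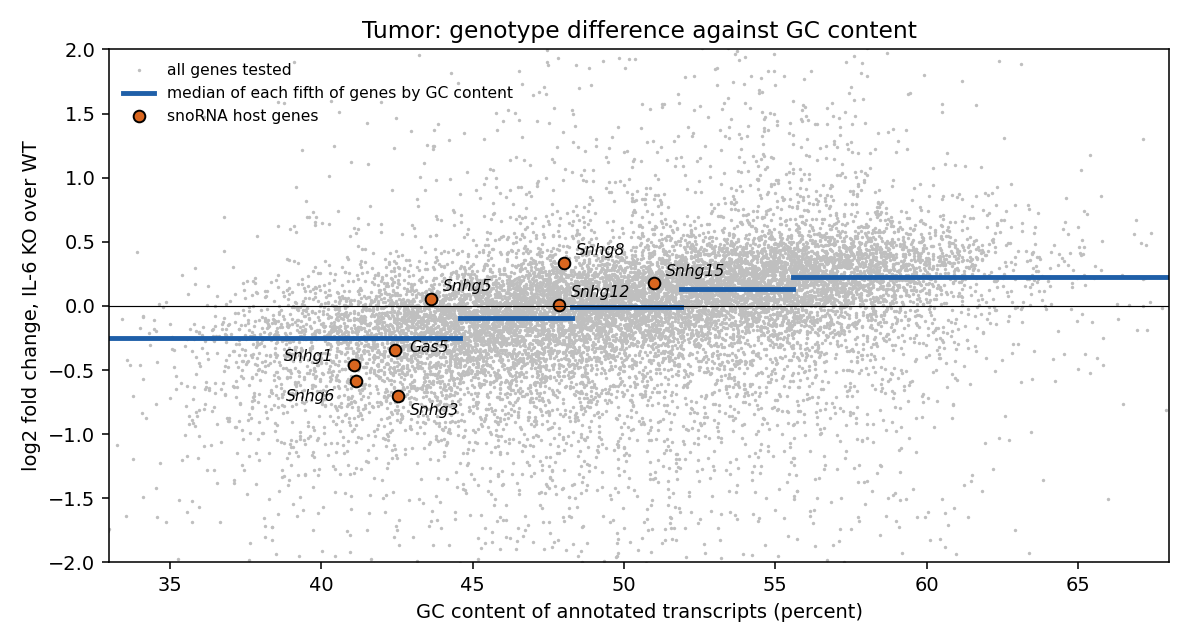
Log2FC (IL-6 KO over WT) in tumor against the GC content of annotated transcripts, for all genes tested (grey), the median of each quintile of genes by GC content (blue lines, -0.25 to 0.23) and the 8 hosts (orange). Points outside the axes are not drawn, and Gas5, Snhg1, Snhg3 and Snhg6 lie below the median of their quintile while Snhg5 lies above it.

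Levels were compared between hosts per kilobase of mean annotated transcript length. In WT tumor, Gas5 was at 6883 ± 352 normalized counts per kb (SD, n = 4), followed by Snhg8 (2517 ± 336), Snhg1 (2038 ± 68.5) and Snhg5 (1669 ± 133), each with a library range apart from the next, except that the range of Snhg5 reached that of Snhg6 (1442 ± 108). Snhg6, Snhg15 (1265 ± 70.2), Snhg3 (1182 ± 117) and Snhg12 (1026 ± 50.4) followed in that order, each overlapping its neighbour. In IL-6 KO tumor the order was Gas5 (5443 ± 488), Snhg8 (3195 ± 557), Snhg5 (1734 ± 180), Snhg1 (1486 ± 134), Snhg15 (1431 ± 128), Snhg12 (1041 ± 150), Snhg6 (960 ± 91.2) and Snhg3 (726 ± 61.5). Neighbours overlapped there from Snhg5 to Snhg15 and between Snhg12 and Snhg6. Snhg1, Snhg6 and Snhg3 stood lower in this order than in WT tumor. As a share of the hosts' summed normalized counts, Gas5 made up between 38.5% and 42.4% in WT and between 34.8% and 37.4% in IL-6 KO tumor, and Snhg8 between 10.1% and 13.3% in WT and between 15.7% and 18.8% in IL-6 KO tumor. Among all genes of the tumor table, Gas5 was between the 87.2 and 92.3 percentiles and Snhg3 between the 42.5 and 51.1 percentiles of its library.

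In the deposited values of the Snhg3 locus, the host was lower and its snoRNA Snora73a higher in IL-6 KO tumor, and without the trend of all genes Snhg3, Snora73a and Snora73b all had positive differences. With only the GC trend removed, Snhg3 was still called lower and Snora73a higher. Without the trend of protein-coding genes, Snhg3 was not called and Snora73a was called higher. H/ACA snoRNAs carry the box ACA close to the 3′ end, in capitals here, and Snora73a and Snora73b (U17, which takes part in the cleavage of the rRNA precursor) have 198 of 205 bases in common, or 96.6%. They are shown as GENCODE vM21 has them, because reads of 75 nt can be hard to assign between copies this alike.
Snora73a (chr4:132352775-132352979, minus): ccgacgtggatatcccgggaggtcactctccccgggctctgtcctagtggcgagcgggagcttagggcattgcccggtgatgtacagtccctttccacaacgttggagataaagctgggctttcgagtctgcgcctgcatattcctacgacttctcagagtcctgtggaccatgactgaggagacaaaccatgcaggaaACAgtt
Snora73b (chr4:132352322-132352526, minus): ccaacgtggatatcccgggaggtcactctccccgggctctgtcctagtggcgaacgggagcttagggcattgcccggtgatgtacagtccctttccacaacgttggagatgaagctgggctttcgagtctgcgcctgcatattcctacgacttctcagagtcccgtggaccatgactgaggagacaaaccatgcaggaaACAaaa

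Snora73a was at 4871, 4571, 3345 and 4029 normalized counts in WT tumor and at 6793, 7390, 5350 and 5658 in IL-6 KO tumor. Every IL-6 KO library was above every WT library, as was so for 13.6% of all tumor genes tested. The log2FC of 0.58 (SE 0.14, limma adjusted p = 0.0169) was 0.86 (adjusted p = 0.00153) without the trend of all genes, 0.89 (adjusted p = 0.00469) without that of protein-coding genes and 0.43 (adjusted p = 0.0408) with only the trend on GC content removed. Without IL-6 KO tumor library 1 the adjusted p was 0.0518. Snora73b had a log2FC of 0.32 (SE 0.15, limma adjusted p = 0.153), and 0.61 (adjusted p = 0.00351, then called higher) without the trend of all genes.

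Because reads of the pair may be split between them, the sum is the safer value. Snora73a and Snora73b together were at 9876, 9857, 7101 and 8139 in WT tumor and at 12713, 14558, 10133 and 10568 in IL-6 KO tumor. All IL-6 KO libraries were above all WT libraries (two-sided exact permutation test, p = 0.0286, which is as low as this test can go with 4 libraries in each group). Of the single genes tested in tumor, 13.6% were apart in the same way. Divided by Snhg3, this sum was 16.6 ± 1.303 in WT and 37.8 ± 8.93 in IL-6 KO tumor (SD, n = 4 each), with no overlap. The sum and Snhg3 were each already apart between the genotypes, in opposite directions. The ratio could therefore not overlap, and it is a description and not a further test. The GC content is 56.1% in Snora73a, 55.6% in Snora73b and 42.6% in Snhg3, so this ratio moves with the trend described above, and its part was not tested. A snoRNA's row does not separate the mature snoRNA from the unspliced precursor. Of the 5 annotated Snhg3 transcripts, 0 hold either snoRNA sequence in full, but Snhg3 transcripts match Snora73a over up to 159 nt and Snora73b over up to 156 nt (at least 97% identity), so reads from these stretches could be counted for the host or for its snoRNAs.

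Rcc1, a chromatin-bound exchange factor for the GTPase Ran, overlaps Snhg3 on the same strand. It was at 6219, 5777, 4908 and 5530 in WT tumor and at 7059, 7377, 7805 and 7170 in IL-6 KO tumor, without overlap of the groups. The same held, in this direction, for 13.6% of all tumor genes tested. Its log2FC of 0.39 (SE 0.08, limma adjusted p = 0.00946) was 0.23 (adjusted p = 0.110) without the trend of all genes. Reads from exons the 2 genes share could be counted for either. Gm17300, on the opposite strand of Snhg3, was at 85.1 ± 42.4 in WT and 22.3 ± 9.04 in IL-6 KO tumor (SD, n = 4 each) (log2FC -1.84, SE 0.40, limma adjusted p = 0.0136, and -1.67 without the trend). Zbtb37, opposite to Gas5, had a log2FC of -0.29 (SE 0.13, limma adjusted p = 0.142), and -0.055 without the trend. The labels name a directional library kit, which keeps the strand, and whether the quantification used it is not given in the sources used here.

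**Figure D4:**
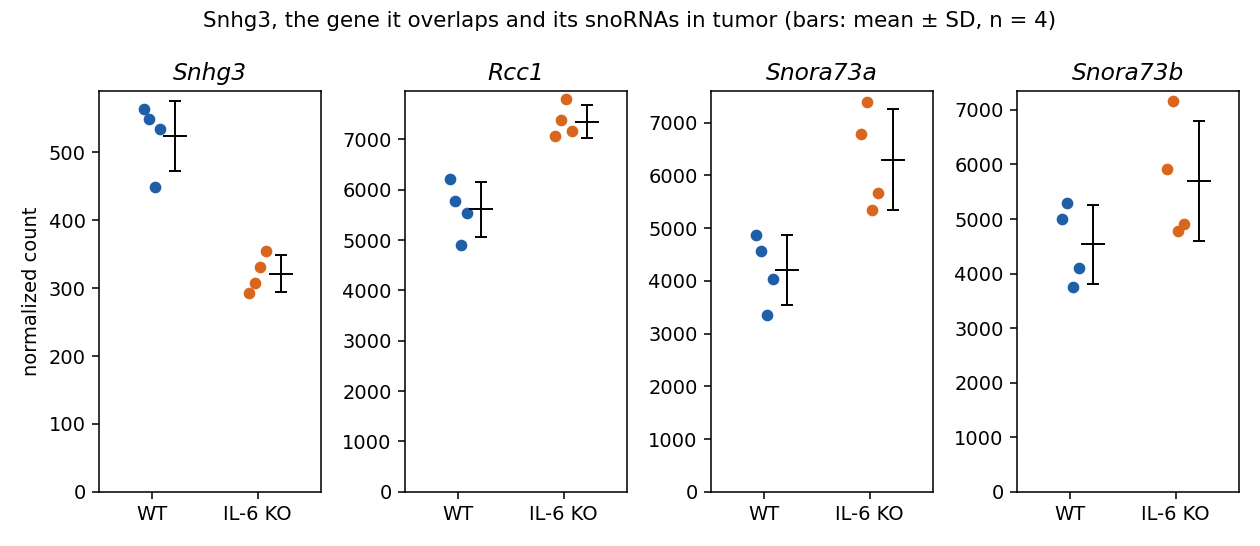
Normalized counts of Snhg3, of Rcc1, which overlaps it on the same strand, and of the snoRNAs Snora73a and Snora73b in the 4 WT (blue) and 4 IL-6 KO (orange) tumor libraries, with mean and SD. Snhg3 is lower in every IL-6 KO library, and Rcc1 and Snora73a are higher in every IL-6 KO library.

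Of the other hosted snoRNAs, 6 had a row in the tumor table. Gm22357, a C/D snoRNA inside Gas5, is shown with its boxes TGATGA and CTGA in capitals, since it is the only snoRNA of Gas5 that the tables list.
Gm22357 (chr1:161036057-161036139, plus): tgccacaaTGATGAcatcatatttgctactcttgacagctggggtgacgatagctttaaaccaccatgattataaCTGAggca
It was at 38.0, 44.7, 54.4 and 25.8 normalized counts in WT tumor and at 16.9, 21.1, 18.2 and 9.49 in IL-6 KO tumor, lower in every IL-6 KO library, as were 11.96% of all tumor genes tested. Its log2FC of -1.26 (SE 0.35, limma adjusted p = 0.0321) was -0.17 (adjusted p = 0.772) without the trend of all genes and turned to 0.47 (adjusted p = 0.433) without that of protein-coding genes. The call was lost when any of 6 of the 8 libraries was left out, with adjusted p up to 0.0885, and 4 of the 25 annotated Gas5 transcripts hold its sequence.

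Snora44 in Snhg12 was at 34.7 ± 13.7 in WT and 76.6 ± 36.2 in IL-6 KO tumor (SD, n = 4 each), with a log2FC of 1.09 (SE 0.42, limma adjusted p = 0.0956). It was called higher without the trend of all genes (1.53, adjusted p = 0.0134) or of protein-coding genes (1.85, adjusted p = 0.0300), with only the length trend removed (1.59, adjusted p = 0.00859) and after quantile normalization (1.38, adjusted p = 0.0470). Its neighbour Snora61 had a log2FC of 0.73 (SE 0.41, limma adjusted p = 0.237) and 0.90 (adjusted p = 0.0561) without the trend, with IL-6 KO libraries 1 and 2 at 191 and 177 and all other tumor libraries between 49.5 and 75.9. Snhg12 itself differed by 0.01, as given above. Snord22 in Snhg1 was at 72.8 ± 21.5 in WT and 65.7 ± 25.6 in IL-6 KO tumor (SD, n = 4 each) (log2FC -0.18, SE 0.30, limma adjusted p = 0.709). Snora9 in Snhg15 was at most 30.3 in any tumor library. Snora24 in Snhg8 was listed at 0 in 4 of the 8 tumor libraries and was not tested.

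In stroma, no host was called, and the genotypes overlapped for every host. Of 12202 genes tested, 0.0082% (1 gene) were called, and of the 6 hosts tested 0 had an unadjusted p under 0.05, beside 1117 of all genes. The hosts' median log2FC was 0.04, beside -0.01 over all genes. Tumor and stroma values come from tables normalized separately, so levels are compared within each table only.

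Gas5 was again the highest host. It was at 264, 318, 263 and 380 normalized counts in WT stroma and at 210, 301, 326 and 152 in IL-6 KO stroma. The groups overlapped, and the log2FC of -0.35 was close in size to that in tumor but had a 95% confidence interval from -1.14 to 0.43 (limma adjusted p = 0.794). Snhg1 was at 40.2, 88.0, 21.3 and 155 in WT stroma and at 114, 75.0, 76.0 and 79.9 in IL-6 KO stroma. The WT libraries spread on both sides of the IL-6 KO libraries, and the log2FC was 0.52 (95% confidence interval -0.80 to 1.85, limma adjusted p = 0.823).

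Snhg5 ranged from 62.0 to 133 in WT and from 67.0 to 148 in IL-6 KO stroma, with a log2FC of 0.15 (95% confidence interval -0.83 to 1.12, limma adjusted p = 0.951). Snhg8 ranged from 57.4 to 98.5 in WT and from 40.5 to 110 in IL-6 KO stroma, with a log2FC of -0.06 (95% confidence interval -1.14 to 1.01, limma adjusted p = 0.986). Snhg12 ranged from 14.0 to 53.6 in WT and from 23.1 to 62.6 in IL-6 KO stroma, with a log2FC of 0.26 (95% confidence interval -1.15 to 1.66, limma adjusted p = 0.931). All 3 had overlapping groups, and the intervals include differences as large as those of Snhg3 and Snhg6 in tumor.

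Snhg15 was at 14.4, 8.78, 32.8 and 22.7 in WT stroma and at 0, 23.8, 5.53 and 33.3 in IL-6 KO stroma. Its log2FC of -1.11 (95% confidence interval -3.62 to 1.40, limma adjusted p = 0.798) rests on the library listed at 0 and was -0.07 without IL-6 KO stroma library 1. Snhg6 was listed at 0 in 5 of the 8 stroma libraries and at between 7.26 and 8.55 in the other 3, below the mean required for a test.

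**Figure D5:**
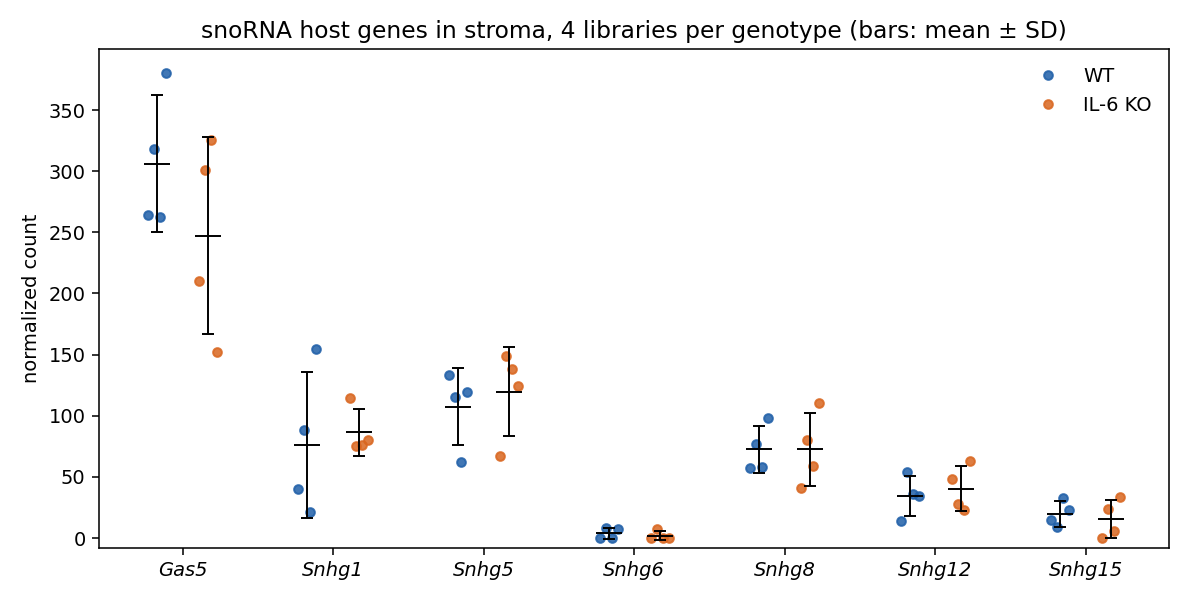
Normalized counts of the 7 hosts listed in stroma in the 4 WT (blue) and 4 IL-6 KO (orange) libraries, with the mean and SD of each group. The genotypes overlap for every host, and Snhg6 is at 0 in 5 of 8 libraries.

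Per kb, Gas5 was at 413 ± 75.2 in WT and 334 ± 109 in IL-6 KO stroma (SD, n = 4 each), above the range of every other host in both. Snhg5 (130 ± 38.0), Snhg8 (124 ± 33.2), Snhg1 (94.0 ± 73.6), Snhg12 (36.3 ± 17.01) and Snhg15 (34.5 ± 18.3) followed in WT stroma, each overlapping the next in line down to Snhg15, and Snhg6 was last with 6.81 ± 7.91. The order of the 7 hosts was the same in IL-6 KO stroma. Within its own table, Gas5 was between the 66.6 and 84.2 percentiles of a stroma library, and Snhg1 between the 25.3 and 68.2 percentiles. Snora73a, at between 522 and 2891 normalized counts, was between the 88.8 and 98.7 percentiles in stroma although its host Snhg3 was not listed there. Summed with Snora73b, it was at 1037, 1073, 2463 and 2180 in WT stroma and at 1353, 2970, 3888 and 1140 in IL-6 KO stroma, with overlapping groups (exact permutation test, two-sided, p = 0.400).

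Whether the genotype difference itself differed between tumor and stroma was tested in one limma fit over the 16 libraries, in which 0.00919% (1 of 10887 genes) were called and 954 had an unadjusted p under 0.05. Of the 6 hosts tested, 0 were called and 0 had an unadjusted p under 0.05. The difference of the log2FCs (tumor minus stroma) was -0.98 for Snhg1 (95% confidence interval -2.08 to 0.11, limma adjusted p = 0.620), 1.285 for Snhg15 (-0.61 to 3.18, adjusted p = 0.730) and 0.40 for Snhg8 (-0.73 to 1.53, adjusted p = 0.884). For Gas5 it was 0.01, with an interval of -0.69 to 0.72 that is wider than the difference in tumor, so a difference between the compartments was not detectable at this spread.

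Other non-coding hosts and the genes of the same pathway were read from the same tumor fit, in which 10.6% of all genes were called higher and 9.16% lower with a median log2FC of -0.01. Without the trend, 11.2% of all genes were called higher and 4.22% lower, with a median of 0.08. Of 14 other non-coding hosts listed, 10 were tested, 0 were called higher and 2 (20%) lower, with a median log2FC of -0.08, and without the trend 1 was higher and 2 lower. Zfas1 fell from 1874 to 1307 normalized counts (log2FC -0.52, SE 0.07, limma adjusted p = 0.00201) and remained called lower without the trend of all genes (-0.41, adjusted p = 0.00591). Dancr fell from 412 to 256 (log2FC -0.71, limma adjusted p = 0.0291) and had -0.59 (adjusted p = 0.0655) without the trend. Snhg17 had -0.44 (limma adjusted p = 0.0617) and was called lower without the trend (-0.51, adjusted p = 0.0436). Epb41l4aos had 0.42 (limma adjusted p = 0.150) and was called higher without the trend (0.71, adjusted p = 0.0355). Zfas1, Dancr and Snhg17 thus had negative values with and without the trend of all genes. Gas5, Snhg1, Snhg3 and Snhg6 had negative values as deposited and positive values without that trend. With only the GC trend or only the length trend removed, these hosts still had negative values.

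Of the 41 protein-coding hosts listed, all were tested, 11 (26.8%) were called higher and 13 (31.7%) lower, with a median of -0.01, and without the trend of all genes 10 were higher and 4 lower. Tpt1, a translationally controlled tumor protein gene with a pyrimidine-run start, fell from 47526 to 25928 normalized counts (log2FC -0.88, limma adjusted p = 0.000173, and -0.70 without the trend). Rps13, a ribosomal protein gene, fell by 0.42 on the log2 scale (limma adjusted p = 0.00341), and by 0.32 without the trend. The nucleolar protein genes Ncl (0.42, limma adjusted p = 0.00368) and Nop56 (0.44, adjusted p = 0.00435) rose, and rose without the trend too (0.58 and 0.46). Over all 233 tested genes whose span holds an annotated snoRNA on the same strand, the 8 hosts left out, 28 (12.02%) were called higher and 34 (14.6%) lower, beside 10.6% and 9.16% of all genes, with 43 higher and 10 lower without the trend. Of these, the 22 that are not protein-coding had 0 higher and 2 lower calls and a median of -0.11, which turned to 0.18 with 4 higher and 2 lower calls without the trend.

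Of 18 core and assembly proteins of snoRNPs, 5 (27.8%) were called higher and 1 (5.56%) lower, with a median log2FC of 0.16, and without the trend 4 were higher and 1 lower with a median of 0.21. Nop56, which binds C/D snoRNAs, rose as given above, Nhp2, a core protein of H/ACA particles, rose by 0.31 (limma adjusted p = 0.0125, and 0.12 with adjusted p = 0.216 without the trend), and the assembly ATPase subunit gene Ruvbl1 rose by 0.24 (limma adjusted p = 0.0291, and 0.22 with adjusted p = 0.0510 without the trend). Its partner Ruvbl2 was the member called lower, with a log2FC of -0.65 (limma adjusted p = 0.0120, and -0.88 without the trend). Of 30 genes for the synthesis and processing of rRNA, 8 (26.7%) were called higher and 1 (3.33%) lower, with a median of 0.18, and without the trend 7 were higher and 0 lower with a median of 0.19. Rrp12 (0.57, limma adjusted p = 0.00263), Ncl, Npm1 (0.35, adjusted p = 0.00524) and Rrp9 (0.59, adjusted p = 0.00582), which act in ribosome assembly, rose and were called higher without the trend as well.

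Of 20 factors of nonsense-mediated decay, 4 (20%) were called higher and 2 (10%) lower, with a median of 0.03, and without the trend 6 were higher and 1 lower with a median of 0.22. Upf1, the helicase at the centre of the pathway, rose from 7599 to 10060 normalized counts (log2FC 0.40, limma adjusted p = 0.00530, and 0.42 without the trend), and Eif4a3, of the exon junction complex, rose by 0.31 (limma adjusted p = 0.00785, and 0.38 without the trend). Gspt1, a release factor, fell by 0.76 on the log2 scale (limma adjusted p = 0.000546) and by 0.55 without the trend, while Magoh, also of the exon junction complex, was lower by a log2FC of -0.37 (limma adjusted p = 0.0123) as deposited and called higher at 0.64 (adjusted p = 0.00714) without the trend. Of 12 glucocorticoid receptor genes and targets, 1 was called higher (Klf9, 0.43, limma adjusted p = 0.0250) and 1 lower (Sgk1, -0.53, limma adjusted p = 0.00368), both also without the trend, with a median of 0.02 either way. Each call was 8.33% of the list. Ddit4 (0.39, limma adjusted p = 0.102, and 0.24 without the trend) and Per1 (0.23, limma adjusted p = 0.124, and 0.085 without the trend) were not called. In stroma no member of these 6 lists was called.

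Genes whose values followed the hosts most closely were found by Pearson's r with the mean of the hosts' centred log2 values over the 8 libraries of a table, as a description of libraries that share genotype and GC trend. In tumor, over 11230 genes with a mean of at least 50, these were Gm45553 (r = 0.981), Ptprf (0.972), Rmnd1 (0.970), the snoRNA gene LOC115488689 (0.969) and Gm38346 (0.966). In stroma, over 8073 genes and the 6 tested hosts, they included G3bp1 (0.961), Ap4e1 (0.946) and Itpr3 (0.942).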

How the data were processed

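RNA of 16 libraries (4 groups of 4) was depleted of rRNA and sequenced by the authors as single-end reads of 75 nt. Per the study's methods, transcript abundance on mm10 was estimated by the authors in Salmon 1.3.0 with corrections for GC and sequence bias, and the estimated counts were normalized with DESeq2 1.28.1. The annotation release is not given in the sources used here. The deposited normalized counts are a scaled signal, 1 table for tumor and 1 for stroma, from which whole reads could not be recovered, so the depth of each library is unknown, no counting interval was computed and edgeR was not run. The sum of a library's normalized counts was between 38817792 and 55592959 in tumor and between 8805689 and 44191950 in stroma. The authors' own results tables (means, log2 fold changes, Wald scores and p-values) were not used.

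log2(normalized count + 1) was fitted with limma 3.58.1 (trend, R 4.3.3) on genes with a mean over 10 in a table, two-sided, with genotype as the only term and Benjamini-Hochberg adjustment over all genes tested at a threshold of 0.05. A fold change on this scale understates that of low genes. The difference between tumor and stroma was fitted over all libraries with array weights by compartment. The trend on GC content and length was a loess fit per library (span 0.3). Intervals are at 95%. Positions, lengths, GC content and snoRNAs came from GENCODE vM21 (GRCm38), matched by Ensembl identifier for 15069 of 15080 tumor and 13338 of 13344 stroma genes. The fits were tested on simulated data. BLAST 2.17.0 (at least 97% identity over 150 nt) found no copy of a host elsewhere. Tables and figures were made in Python 3.11.15 (SciPy 1.17.1, pandas 2.3.3, matplotlib 3.10.9).

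The hosts and the lists of genes were chosen with earlier results of these data known. The text names the hosts, their snoRNAs with a row in a table, up to 4 genes per list with the smallest p in tumor, and the 5 genes per table most like the hosts in pattern. For stroma, 2 of these 5 are not reported here. Rcc1, Gm17300, Zbtb37, Rn7s1, CT010467.1, Gm26917 and single marker genes were named for overlap with a host or as facts of the libraries. Alternatives were pseudocounts of 0.5 and 5, no filter or a mean over 50, quantile normalization, centring on library medians, array weights, a block for the replicate number, removal of trends and leaving out each library. Removal of the GC trend alone, of the length trend alone and of the trend of protein-coding genes was chosen after the data were seen.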

Additional observations from a re-analysis of the deposited data

Results flagged for a closer look

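In 3 of 58 groups of 4 libraries of a host or hosted snoRNA, 1 library stood apart from the other 3 by more than Dixon's 95% limit, a limit that chance passes in about 1 of 20 groups. Snhg5 was at 1648 normalized counts in IL-6 KO tumor library 1, above 1382 as the next highest, and without this library its log2 fold change in tumor was -0.02. Snhg1 was at 114 in IL-6 KO stroma library 1, above 79.9 as the next highest. Snhg6 was at 7.61 in IL-6 KO stroma library 2 and listed at 0 in the other 3 libraries of that group.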

How the results depend on the processing

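The 4 hosts called lower in tumor stayed 4 and those called higher stayed 0 under both pseudocounts, both other filters, quantile normalization, centring and array weights, and when each library was left out (4 to 4 lower, 0 to 0 higher). The labels do not say what a replicate number shares, and libraries of equal number did not deviate together (correlations between -0.029 and 0.13, and 0 of 8 tumor and 2 of 8 stroma libraries correlated best with their own number). The replicate block gave 4 hosts lower and 1 higher (Snhg8), and 2230 in place of 2870 calls over all tumor genes. Removing trends changed the calls, by construction of the values tested. Lower calls went to 0 (trend of all genes), 1 (GC alone), 3 (length alone) and 0 (trend of protein-coding genes), and higher calls to 5 (all genes), 2 (GC alone), 2 (length alone) and 1 (protein-coding genes). Over all tumor genes, 11.2% were called higher and 4.22% lower without the trend of all genes. For the other removals no such share is given, so their counts are not a result about the hosts.

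Without the trend of all genes, the log2 fold change in tumor turned to 0.30 for Gas5, 0.19 for Snhg1, 0.29 for Snhg3, 0.39 for Snhg6 and 0.28 for Snord22, and that of Snhg8 in stroma to 0.025. Without the trend of protein-coding genes it turned to 0.015 for Gas5, 0.47 for Gm22357 and 0.62 for Snord22, and without the GC trend alone to 0.023 for Snhg8 in stroma. Without the length trend alone it turned to -0.011 for Snhg12 and 0.32 for Snord22 in tumor. Quantile normalization gave -0.010 for Snhg12 and 0.043 for Snord22 in tumor, and array weights gave -0.021 for Snhg12 in tumor and -0.13 in stroma. None of these turned values was called except those of Gas5 and Snhg6.

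With 1 library left out, the uncalled log2 fold changes that changed sign ran from -0.018 to 0.092 (Snhg5), -0.066 to 0.096 (Snhg12) and -0.41 to 0.0052 (Snord22) in tumor, and from -0.097 to 0.40 (Snhg5), -0.29 to 0.18 (Snhg8) and -0.11 to 0.51 (Snhg12) in stroma. In stroma, 0 hosts were called under each of the 12 alternatives and with each library left out, the replicate block included. In the test between compartments, 0 were called under the 5 alternatives run (both pseudocounts, centring, the replicate block and no array weights) and with each library left out. Calls over all tumor genes numbered 1821 without the trend of protein-coding genes, and 1722, 1791, 1617 and 1569 without WT tumor libraries 3 and 2 and IL-6 KO tumor libraries 1 and 4. The depth of the libraries is unknown, and the spread in stroma limits what could be seen there.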
